A study of Oryza sativa Indica Group with 8 samples.

Results

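The aquaporin genes of rice (Oryza sativa Indica Group) were followed in seedling roots under withdrawal of phosphorus (P), iron (Fe) or both. The members were all genes that the gene table names, by symbol or synonym, as a numbered PIP, TIP, NIP or SIP. Names are given in the table's hyphenated form, so that PIP2-8 is the gene also called OsPIP2;8. OsLsi1 (NIP2-1) was set aside. The table held 28 such genes, and 24 of them had a probe set mapped to that gene alone, out of 17905 genes with such a probe set. These were 10 PIP, 8 TIP, 4 NIP and 2 SIP genes. PIP2-3, OsTIP5;1, NIP1-2 and NIP3-3 had none and were not analysed here. Where a gene had several probe sets, the one with the highest mean over the arrays was used.

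Total root RNA was hybridised to 8 Affymetrix rice arrays, 2 for each of 4 groups. The groups were a control supplied with both nutrients (titled P+), seedlings deprived of P (P-), seedlings deprived of Fe (Fe-) and seedlings deprived of both (P-Fe-). Treatment lasted 7 days by the design text, whereas the protocols speak of 10 days in hydroponics and of 5-day-old seedlings, and no cultivar, mutant or transgene is named. Whether the paired arrays of a group stand for separate plantings is not stated, so each p-value reflects the scatter of these particular arrays, possibly a technical one, and precision is set by their number.

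Aquaporins are channel proteins of cell membranes that pass water and, in some members, small uncharged solutes. Plasma membrane intrinsic proteins (PIPs) sit in the outer cell membrane, where PIP2 proteins are strong water channels and many PIP1 proteins need a PIP2 partner to reach the membrane, as shown in maize. Tonoplast intrinsic proteins (TIPs) sit in the vacuolar membrane, nodulin 26-like proteins (NIPs) pass metalloids such as silicon, boron and arsenite, and small basic intrinsic proteins (SIPs) lie in the endoplasmic reticulum in Arabidopsis. In roots, PIPs and TIPs carry much of the water that crosses from cell to cell.

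Values below are probe set intensities after quantile normalization over the 8 arrays, given by array or as group mean ± SD (n = 2). Changes are log2 differences of (intensity + 16) from 1 limma fit on all 8 arrays, with standard errors (SE), and p-values carry a Benjamini-Hochberg adjustment over 57194 probe sets, with 0.05 as the threshold. The added 16 understates the change of dim genes. Intensities of different probe sets do not rank transcripts by amount. In bulk roots, fewer cells of a type and less RNA per cell cannot be told apart.

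The probe sets of 14 members had a mean above 500, namely 8 PIP, 4 TIP, 1 NIP and 1 SIP gene. The other 10 ranged down to PIP2-7, whose mean of 16.4 lay below the array median of 57.7. In all, 4 members had a mean below that median, and without detection calls they are not shown to lie above background. The brightest TIP, PIP and SIP probe sets gave changes close to 0. PIP1-2 (LOC9270874), a PIP1 channel, was at 24730 and 24090 on the control arrays, 24490 and 24090 in P deficiency, 23790 and 24850 in Fe deficiency and 23740 on both arrays of the combined deficiency. Its groups overlapped or differed by little, and its change was -0.01 (SE 0.126) in P deficiency and -0.04 in the combined deficiency. TIP1-1 (LOC4331608), a vacuolar water channel, was at 26380 and 24010 in the control, 26680 and 25670 in P deficiency, 24010 and 25290 in Fe deficiency and 26590 and 28150 in the combined deficiency, and its changes against the control lay between -0.03 and 0.12 (SE 0.136). SIP1-1 (LOC4325361), a small basic intrinsic protein, was at 2551 and 2452 in the control, 2913 and 2606 in P deficiency, 2518 and 2588 in Fe deficiency and 2665 and 2712 in the combined deficiency, with changes of 0.03 to 0.14 (SE 0.135). None of these 3 genes passed the test in any contrast of the design. TIP1-1 had a second probe set, also bright, at 10750 and 9278 in the control and 8676 and 8868 in P deficiency. Its change there was -0.19 (limma adjusted p = 0.504), where the chosen probe set gave 0.06.

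**Figure D1:**
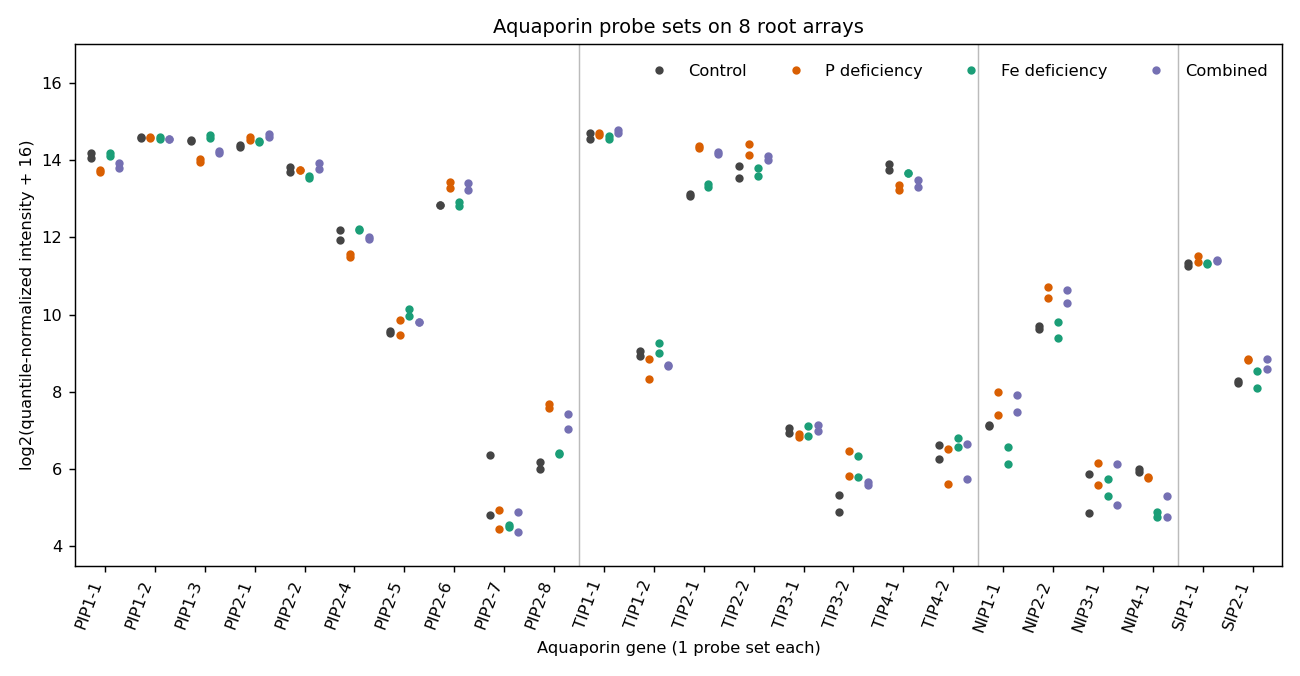
Every array value of the 24 aquaporin genes, 1 probe set each, on the log2(quantile-normalized intensity + 16) axis, coloured by group, with vertical lines between PIP, TIP, NIP and SIP genes. TIP2-1 and PIP2-8 show P-deprived arrays (orange and violet) clear of the others, while the 8 points of PIP1-2 and of TIP1-1 lie close together.

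The first comparison asked what withholding P did to aquaporin transcripts in roots supplied with Fe. TIP2-1 and PIP2-8 rose, and the other 22 members did not pass. Thus 2 of 24 members rose and 0 fell, where 8.28% of all probe sets were called, 4.23% upward and 4.05% downward. The share of aquaporins called was near that of all probe sets. With 1 probe set per gene, as for the members, 1436 of 17905 genes rose and 1313 fell, a larger share than over all probe sets. Of the 14 members with a mean above 500, 1 was called, beside 18.6% of genes above 500.

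TIP2-1 (LOC4330207) encodes a vacuolar membrane channel of the TIP2 group, which in Arabidopsis and wheat also passes ammonia. It was at 8633 and 8855 on the control arrays, 20390 and 21030 in P deficiency, 10670 and 10020 in Fe deficiency and 18910 and 18260 in the combined deficiency. All 4 arrays of P-deprived roots were higher than all 4 of roots given P. The group means were 8744 ± 156 in the control and 20710 ± 452 in P deficiency, a 2.37-fold rise (log2 change 1.24, SE 0.129, limma adjusted p = 0.00941). These values came from an _s_at probe set, a kind that can bind several similar transcripts. In all, 6 members were measured by an _s_at or _x_at probe set. The second TIP2-1 probe set, far dimmer and without the _s_at suffix, went from 269 to 1398 (2.28, adjusted p = 0.00907). Both probe sets thus rose, and they differed in the size of the change.

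PIP2-8 (LOC4334873) encodes a plasma membrane channel of the PIP2 group. It was dim, at 56.6 and 47.9 in the control, 176.5 and 190.7 in P deficiency, 69.9 and 68.4 in Fe deficiency and 116.7 and 156.7 in the combined deficiency. Here too, all P-deprived arrays were above all others, and both control arrays lay below the array median of 57.7. The rise in P deficiency was from 52.3 ± 6.14 to 183.6 ± 10.1 (2.93-fold, log2 change 1.55, SE 0.179, adjusted p = 0.0112). Both calls depended on single arrays. Without control replicate 1 or without either P-deficiency array the adjusted p of TIP2-1 was 0.05 to 0.0586, and without any 1 control or P-deficiency array that of PIP2-8 was 0.0507 to 0.0645, with changes of 1.21 to 1.26 and 1.46 to 1.63.

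Among the members that did not pass in P deficiency, values went both ways within the PIP family. The PIP1 gene PIP1-3 (RWC3, LOC4331194) averaged 23340 ± 267 under control supply and 16120 ± 559 without P (-0.53, adjusted p = 0.0653). PIP1-1 (RWC1, LOC4330248) had 18600 and 17090 in the control, 13770 and 13070 in P deficiency, 18630 and 17420 in Fe deficiency and 14290 and 15390 in the combined deficiency (-0.41 in P deficiency, adjusted p = 0.146). These 2 PIP1 genes had both P-deficiency arrays below both control arrays. In the PIP2 group PIP2-6 (LOC4335226) averaged 7337 ± 2.52 under control supply and 10420 ± 728 without P (0.50, adjusted p = 0.0986). PIP2-4 (LOC4343119) was at 4624 and 3910 in the control, 3022 and 2854 in P deficiency, 4618 and 4754 in Fe deficiency and 4118 and 3930 in the combined deficiency (-0.53 in P deficiency, adjusted p = 0.0913). PIP2-2 (LOC4330049) lay between 11850 and 15420 on the 8 arrays, with the groups of P-deprived and P-supplied roots overlapping. PIP2-4, PIP2-5 and PIP2-1 follow each other in the gene table with no other coding gene between them, and their changes were -0.53, 0.11 and 0.19. PIP2-1 (LOC4343122) had 3 probe sets, of which the 2 bright ones gave 0.19 and 0.07, while the third gave 0.53 (2142 and 3105, adjusted p = 0.0658). The PIP median was -0.01, or 0.04 with the deposited scaling and -0.18 with arrays centred on their medians, with a range from -0.90 for the dim PIP2-7 to 1.55. PIP2-7 was at 12.1 and 66.5 in the control and 14.5 and 5.78 in P deficiency (SE 0.52). Its groups thus overlapped, and the low end of the range rested on 1 control array.

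The TIP family had a median of -0.04, between -0.54 for TIP4-1 (LOC4338163) and 1.24. TIP4-1 was at 13740 and 15110 on the control arrays, 9467 and 10350 in P deficiency, 13000 and 13040 in Fe deficiency and 11350 and 10120 in the combined deficiency (adjusted p = 0.0837 in P deficiency). TIP2-2 (LOC4340941), the other measured TIP2 gene, was at 14740 and 11940 in the control, 21780 and 17780 in P deficiency, 12260 and 14200 in Fe deficiency and 17590 and 16400 in the combined deficiency (0.57 in P deficiency, adjusted p = 0.142). In these 2 genes the P-deprived arrays lay wholly below and wholly above the others, respectively. TIP2-2 was measured only by an _x_at probe set, a kind that can bind other, similar transcripts. TIP1-2 (LOC4324303) was at 469 and 517 in the control and at 442 and 307 in P deficiency, with 600 and 500 in Fe deficiency and 388 and 398 in the combined deficiency. TIP3-1 (LOC4348981) and TIP3-2 (LOC4336464) belong to the TIP3 group, known from seed vacuoles, and both were dim here, at group means of 101 to 118 and of 19.3 to 56.5. TIP4-2 (LOC4324277) was dim too, between 32.9 and 95.3 on the 8 arrays.

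Of the NIP genes, NIP2-2 (Lsi6, LOC4340558), which takes silicon out of the xylem sap in rice leaves, was at 816 and 776 in the control, 1359 and 1659 in P deficiency, 875 and 655 in Fe deficiency and 1253 and 1566 in the combined deficiency. The P-deprived arrays were again all above the rest. Its change in P deficiency was 0.90 (SE 0.216, adjusted p = 0.0629), and it was measured by an _x_at probe set, a suffix Affymetrix gives to probe sets that can bind other, similar transcripts. SIP2-1 (LOC4332668) was at 285 and 293 in the control, 446 and 434 in P deficiency, 259 and 354 in Fe deficiency and 369 and 447 in the combined deficiency (0.58 in P deficiency, adjusted p = 0.144). NIP3-1 (DTE1, LOC4349102), a boron channel gene, was dim, between 13.1 and 55.6 on the 8 arrays. The medians were 0.54 for the 4 NIP genes and 0.36 for the 2 SIP genes, beside -0.02 over all genes. The NIP median lay midway between NIP1-1 (0.57) and NIP3-1 (0.51, SE 0.498). NIP3-1 had overlapping arrays and a mean of 34.7, below the array median, so it is not shown to lie above background. The NIP median rested on single arrays, at 0.28 without control replicate 1, 0.25 without P deficiency replicate 2 and 0.83 without P deficiency replicate 1. OsLsi1 (NIP2-1), the silicon importer of rice roots, stood at 28310 and 25590 in the control and 17450 and 16480 in P deficiency, and fell by 0.67 on the log2 scale (adjusted p = 0.0444).

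**Figure D2:**
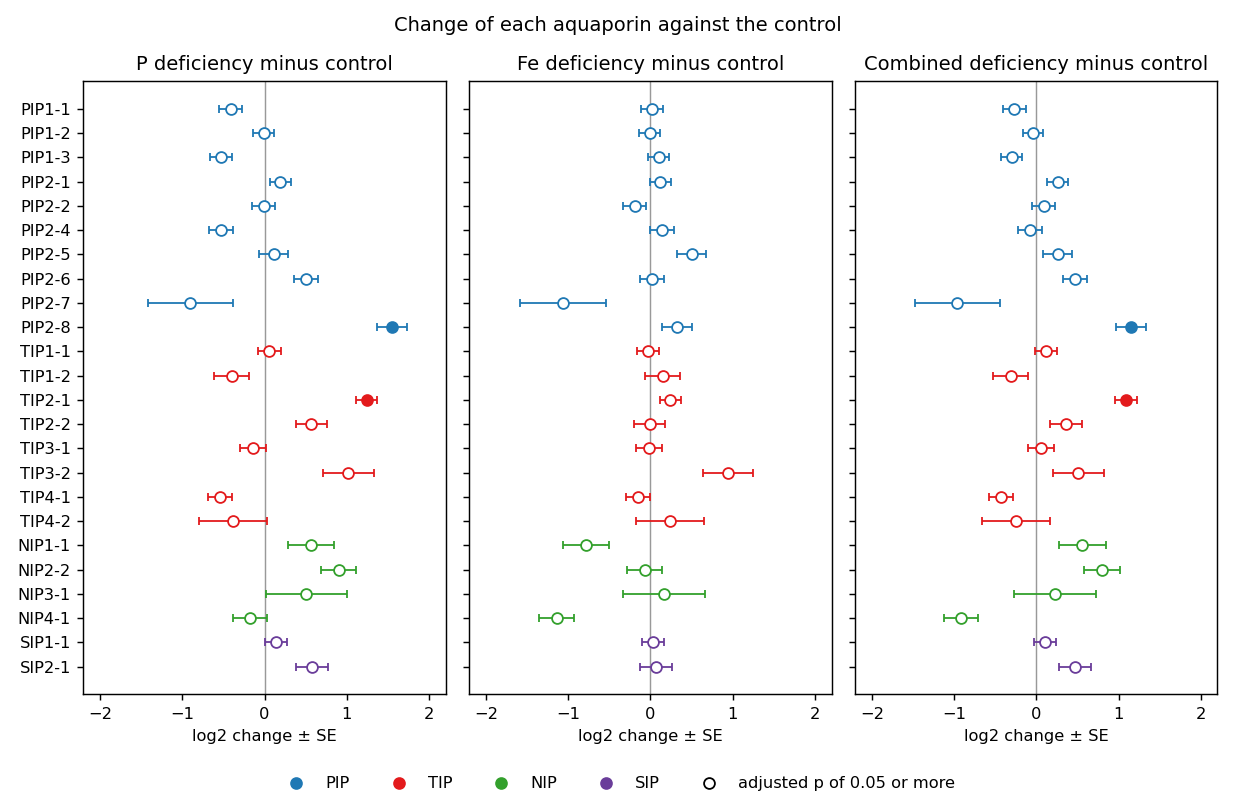
Log2 change ± SE against the control for each aquaporin in P, Fe and combined deficiency, coloured by subfamily, with filled points for an adjusted p below 0.05. Filled points are TIP2-1 and PIP2-8 under P and combined deficiency, and there are none under Fe deficiency.

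Markers of particular cells moved with P supply alongside these aquaporins, beside the 8.28% of all probe sets called in P deficiency. The 3 secondary-wall cellulose synthase genes CESA4, CESA7 and CESA9, which mark xylem and fibres, all rose in P deficiency, and their summed intensity was 6091 to 6374 on the control arrays, 14630 to 14640 in P deficiency, 5871 to 6426 in Fe deficiency and 12370 to 13760 in the combined deficiency. Of 39 dividing-cell markers 15 rose and 2 fell in P deficiency, with sums of 31880 to 33210 in the control, 50480 to 54000 in P deficiency, 30080 to 30420 in Fe deficiency and 43060 to 43190 in the combined deficiency. That list was made by name from B-type cyclins, CDKB2-1 and, for the most part, genes named KIN with a number. KIN14K and KIN14M were the 2 that fell. How far the KIN genes mark dividing cells was not tested. Of 5 root markers, OsLsi1 among them, 1 rose and 3 fell, and their sums were 42610 to 45280, 26880 to 27640, 49870 to 49940 and 32340 to 34760 in the same order of groups. OsCASP1, of the endodermal Casparian strip, was the marker that rose in P deficiency (1.77, adjusted p = 0.00687). The list also held Lsi2, NAAT1 and YSL15. In Fe deficiency 1 of the 5 root markers rose and 0 fell, beside 0.124% of all probe sets called. Whether the root marker sums reflect cell content or the response of single genes to Fe supply was not tested. Of 5 green tissue markers 3 fell, with sums of 51090 to 54170, 31200 to 31610, 46110 to 49630 and 34550 to 36170. No marker gene was at 0, those of green tissue included, and root hair markers were not measured. The part of these cell types in the aquaporin values was not tested.

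The second comparison asked what withholding Fe did in roots supplied with P. No aquaporin passed: 0 of 24 members rose or fell in limma, where 0.124% of all probe sets were called, and 4 of 24 had an unadjusted p below 0.05, beside 8.33% of all probe sets. Those 4 were NIP1-1, NIP4-1, PIP2-5 and TIP3-2. The largest change downward among the 4 was that of NIP4-1 (LOC4326119), a NIP gene whose probe set lay below the array median throughout. Its values were 48.0 and 44.6 in the control, 39.3 and 38.5 in P deficiency, 13.8 and 11.0 in Fe deficiency and 11.3 and 23.7 in the combined deficiency. The arrays without Fe were all below those with Fe, with a change of -1.14 (SE 0.209, adjusted p = 0.173) in Fe deficiency and -0.92 (adjusted p = 0.0775) in the combined deficiency. PIP2-5 (LOC4343121) was at 722 and 745 in the control and 974 and 1124 in Fe deficiency (0.50, adjusted p = 0.527). The subfamily medians were 0.06 for PIP, 0.07 for TIP, -0.43 for NIP and 0.05 for SIP genes, and -0.01 over all genes. The PIP median was -0.16 with the deposited scaling and -0.15 with centred arrays. Without Fe deficiency replicate 2 the NIP median was -0.21 and the SIP median -0.07.

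Roots deprived of both nutrients were next compared with the same control arrays, which this and the preceding comparisons therefore share. The 2 members that had risen in P deficiency rose here as well. TIP2-1 reached 18580 ± 461 (1.09, SE 0.129, adjusted p = 0.0213) and PIP2-8 reached 136.7 ± 28.2 (1.15, SE 0.179, adjusted p = 0.0346). Thus 2 of 24 rose and 0 fell, where 3.85% of all probe sets (2.07% upward) and 8.15% of genes with a mean above 500 were called. Both calls were lost when any 1 of the 8 arrays was left out. The medians were 0.02 for PIP, 0.09 for TIP, 0.40 for NIP and 0.29 for SIP genes, beside -0.02 over all genes. Scaling by each array's own median, which moves the median of all probe sets to -0.19, gave -0.32, -0.12 and 0.02 for PIP, TIP and SIP genes, so the direction of the PIP and TIP medians depended on the scaling. The NIP median was 0.03 without combined deficiency replicate 1, 0.70 without replicate 2 of that group, 0.13 without control replicate 1 and 0.66 without control replicate 2.

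Adding Fe withdrawal to roots already lacking P called no aquaporin in limma. Of 24 members 0 passed, where 0.0315% of all probe sets were called, and NIP4-1 and PIP2-4 had an unadjusted p below 0.05, beside 10.2% of all probe sets. TIP2-1 differed by -0.16 (adjusted p = 0.746) and PIP2-8 by -0.40 (adjusted p = 0.54) between the combined and the P deficiency. Withholding P from roots already lacking Fe called TIP2-1 alone, from 10340 ± 456 in Fe deficiency to 18580 ± 461 (1.8-fold, log2 change 0.84, SE 0.129, adjusted p = 0.0436), 1 of 24 members where 2.26% of all probe sets (1.36% upward) and 5.31% of genes with a mean above 500 were called. This call too was lost when any 1 array was left out. PIP2-8 gave 0.83 (adjusted p = 0.082) and NIP1-1 1.34 (adjusted p = 0.0779). For TIP2-1 the order of the groups was thus control, Fe deficiency, combined deficiency and P deficiency, where control and Fe deficiency (0.24, adjusted p = 0.731) and combined and P deficiency did not pass a test of their difference. In the interaction of the deficiencies 0 of 24 members passed in limma, where 0.0402% of all probe sets were called, and PIP2-8 (-0.72) and TIP3-2 (-1.44) had an unadjusted p below 0.05, beside 8.76% of all probe sets.

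Withholding P was thus measured in 2 separate sets of arrays, with Fe (P deficiency against control) and without it (combined against Fe deficiency). The change had the same sign in both for 18 of 24 members, 11 upward and 7 downward, which is 75%, beside 76.5% of all genes. Among the 14 members with a mean above 500 it was 12, beside 82.5% of all genes above 500, and the 2 changes correlated at 0.93 across these members and at 0.84 across all genes above 500, as a description over genes that share the arrays. Withholding Fe gave the same sign in 13 of 24 members, which is 54.2%, beside 53.5% of all genes. The share of aquaporins with the same sign was thus close to that of all genes for both nutrients.

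**Figure D3:**
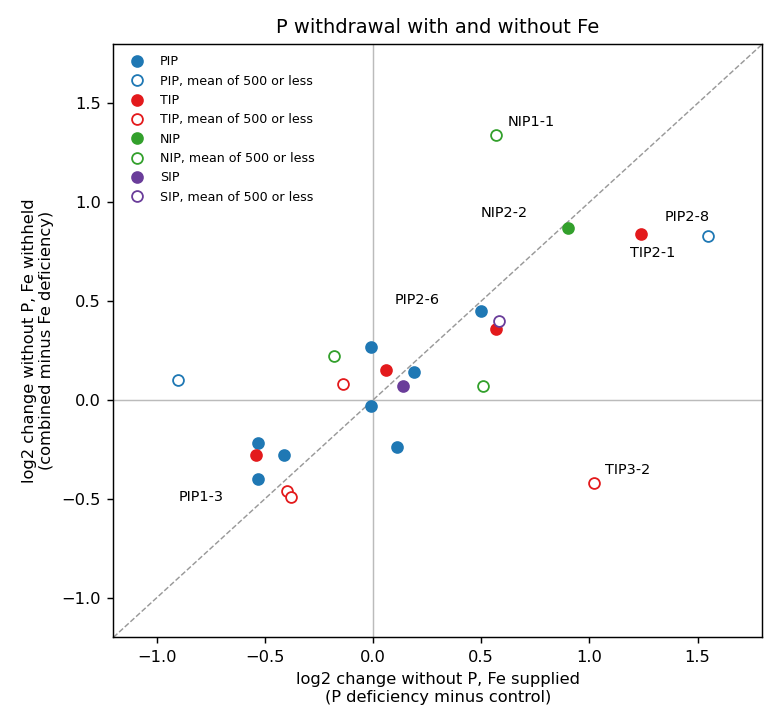
Each point is an aquaporin gene, with its log2 change on P withdrawal in Fe-supplied roots (horizontal) and in Fe-deprived roots (vertical), coloured by subfamily, open where the mean over the arrays was 500 or less. Most filled points lie near the dashed line of equal change, and TIP3-2 lies far from it, at 1.02 and -0.42.

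No interaction passed, which with 2 arrays per group does not show that the P effect was equal with and without Fe. The P effect was also averaged over both Fe supplies in the same fit. This comparison was chosen after the data had been seen and built from the same arrays as those above. Of 24 members 5 rose and 1 fell, where 12.6% of all probe sets (6.24% upward and 6.36% downward) and 28.6% of genes with a mean above 500 were called. With 1 probe set per gene, as for the members, 2145 of 17905 genes rose and 2105 fell, a larger share than over all probe sets. Of the 14 members with a mean above 500, 3 rose and 1 fell. The 5 members that rose were PIP2-8 (1.19, SE 0.126, limma adjusted p = 0.00559), TIP2-1 (1.04, SE 0.0914, adjusted p = 0.0038), NIP1-1 (0.96, adjusted p = 0.0338), NIP2-2 (0.89, adjusted p = 0.0196) and PIP2-6 (0.48, adjusted p = 0.0358). The gene that fell was PIP1-3 (-0.47, SE 0.0916, adjusted p = 0.0289). The split between directions depended on the scaling. With arrays centred on their medians, NIP1-1, NIP2-2, PIP2-8 and TIP2-1 rose, and PIP1-1, PIP1-3, PIP2-4, TIP1-2 and TIP4-1 fell. Among all probe sets, centring called 8820 for this averaged P effect, beside 7211 in the main scaling. Of all calls over the arrays, 49.5% were upward in the main scaling and 24.5% with centring. In P deficiency against the control these shares were 51% and 32.8%, in the combined deficiency 53.8% and 29.7% (64.4% with the deposited scaling), and for the combined against Fe deficiency 60% and 27.6%.

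NIP1-1 (LOC4328814), a NIP that can pass arsenite in rice, was at 123.3 and 125.8 in the control, 154.6 and 240.1 in P deficiency, 79.5 and 54.2 in Fe deficiency and 224.2 and 162.5 in the combined deficiency. PIP2-6 was at 7339 and 7335 in the control, 9902 and 10930 in P deficiency, 7163 and 7705 in Fe deficiency and 9603 and 10780 in the combined deficiency. PIP1-3 was at 23150 and 23530 in the control, 15720 and 16510 in P deficiency, 24290 and 25670 in Fe deficiency and 18600 and 19310 in the combined deficiency. In each of these 3 genes the 4 P-deprived arrays lay on one side of the 4 P-supplied arrays. Just short of the threshold were TIP4-1 (-0.41, adjusted p = 0.0566), PIP2-4 (-0.38, adjusted p = 0.0762), SIP2-1 (0.49, adjusted p = 0.078), PIP1-1 (-0.35, adjusted p = 0.0805) and TIP2-2 (0.47, adjusted p = 0.0832). The third PIP2-1 probe set passed (0.58, adjusted p = 0.015), while the chosen one did not (0.16, adjusted p = 0.33).

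All P-deprived arrays were above all P-supplied arrays in 9 members and below them in 4, so 13 of 24 did not overlap. This held for 20.3% of all probe sets, 9.4% higher and 10.9% lower. For the members with a mean above 500 the count was 9 of 14, of which 6 were higher and 3 lower, beside 49.8% of genes above 500, 23.6% higher and 26.2% lower. By subfamily, 3 PIP, 2 TIP, 2 NIP and 2 SIP genes were higher, and 2 PIP and 2 TIP genes were lower. The 2 PIP genes that were lower, PIP1-1 and PIP1-3, are both PIP1 genes, and the 3 that were higher, PIP2-1, PIP2-6 and PIP2-8, are PIP2 genes. The other PIP genes overlapped, and they include PIP2-4, whose averaged change of -0.38 lay between those of PIP1-1 and PIP1-3, and the PIP1 gene PIP1-2, at -0.02. For PIP2-1 the _x_at probe set overlapped as well, at 0.04. The averaged Fe effect called 0 of 24 members in limma, where 0.166% of all probe sets were called, and 3 of 24 had an unadjusted p below 0.05, beside 9.95% of all probe sets. NIP4-1 was the 1 member whose Fe-deprived arrays all lay apart from the Fe-supplied ones, which held for 3.29% of all probe sets. The threshold of the averaged P effect was held by TIP2-1 and PIP2-8 with any 1 array left out. PIP1-3 and PIP2-6 lost it with each array that was left out, NIP1-1 held it only without P deficiency replicate 1, and NIP2-2 held it only without P deficiency replicate 1, Fe deficiency replicate 1 or combined deficiency replicate 1.

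**Figure D4:**
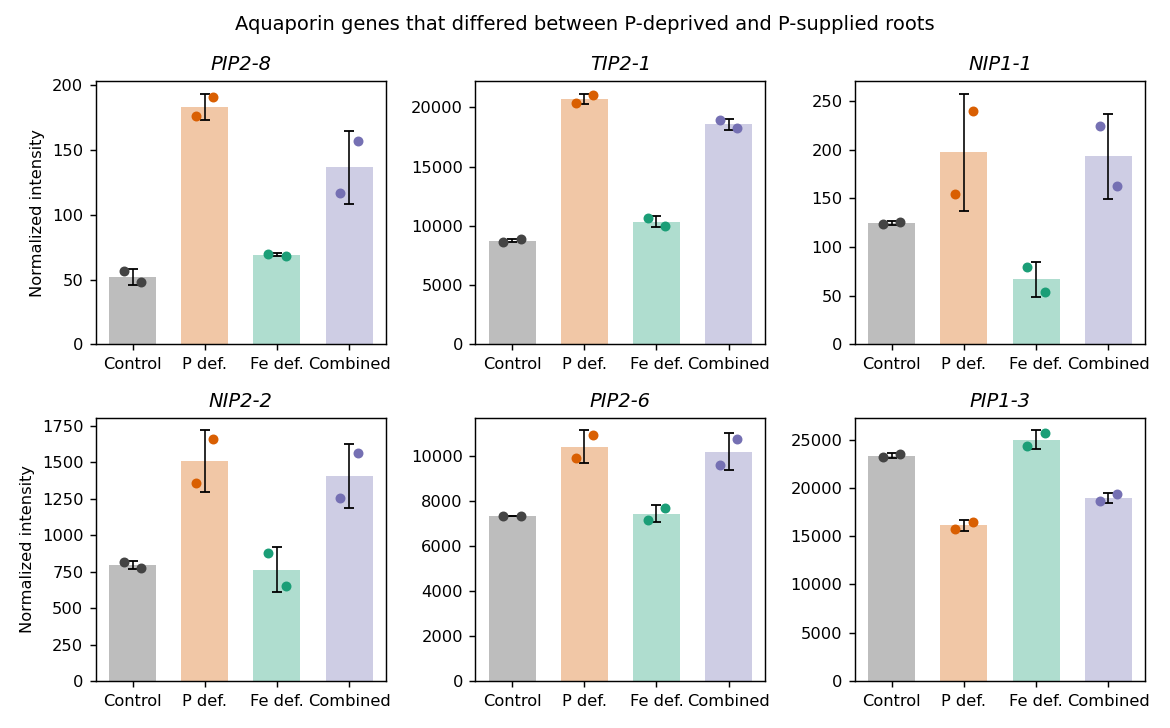
Normalized intensity of the 6 aquaporin genes that passed the averaged comparison of P-deprived with P-supplied roots, as group mean (bar), SD (error bar) and both arrays (points), on linear axes from 0. PIP1-3 is lower and the other 5 are higher in P deficiency and in the combined deficiency.

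Other transporters and regulators were taken from lists by gene name, to be read against the 8.28% of all probe sets called in P deficiency (4.23% upward and 4.05% downward) and the 3.85% called in the combined deficiency. The 14-3-3 proteins bind and regulate plasma membrane pumps and channels, and 1 of 7 measured genes rose in P deficiency, GF14C, from 5470 to 12170 (1.15, adjusted p = 0.0116). None fell there, and the median was -0.09. In the other comparisons with the control 0 of 7 passed in limma. Of 25 potassium channel and carrier genes, whose products move the main osmotic ion of plant cells, 4 fell and 0 rose in P deficiency, led by HAK16 (-1.75, adjusted p = 0.0124), HAK1 (-0.81, adjusted p = 0.0221) and HAK23 (-0.74, adjusted p = 0.0323), and the list's median was -0.08. In the combined deficiency HAK17 was the 1 member that rose (2.12, adjusted p = 0.0192). The searches for tonoplast proton pumps and plasma membrane proton ATPases by name matched no gene of the table.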

How the data were processed

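The submitters' processing notes name Affymetrix Expression Console 1.1. The sources used here do not give the summary method. What the authors deposited are intensities, linear and without detection calls, and the trimmed mean (lowest and highest 2% left out) was 500.07 on each array. Of 57381 probe sets, 57194 remained without AFFX and RPTR control sequences, and 22436 matched exactly 1 gene in the platform annotation. Names came from a RefSeq gene table of a japonica assembly.

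Intensities were quantile-normalized, converted to log2(intensity + 16) and fitted with 1 mean per group in limma 3.58.1 (R 4.3.3; residual degrees of freedom 4, prior 1.74), with 6 contrasts. Averages of the P and of the Fe effect were added after the data were seen. The fit was tested on simulated data. Alternatives covered scaling, the added value, a filter on dim probe sets, probe set choice, a replicate block, 2-group fits, an intensity trend and leaving out each array. All members may be named, and every array is given for those that passed a contrast and, per subfamily, for the brightest and the one with the largest change. Members, lists and this rule were chosen with earlier results of these data known.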

Additional observations from a re-analysis of the deposited data

Results flagged for a closer look

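In 4 members every array moved one way on a deficiency in 1 setting and the other way in the second setting, which flagged them. For withheld P this was 1 of 24 members, beside 5.05% of all probe sets and 4.24% of all genes, and for withheld Fe 4 of 24, beside 7.61% and 9.44%. The limma test of that difference, the interaction, was not passed by any of them. For TIP3-2, a dim gene, withholding P gave 1.02 with Fe and -0.42 without it, and withholding Fe gave 0.94 with P and -0.51 without it (interaction -1.44, adjusted p = 0.439). For PIP2-8, withholding Fe gave 0.32 with P and -0.40 without it (interaction -0.72, adjusted p = 0.506). TIP2-1 gave 0.24 and -0.16 (interaction -0.40, adjusted p = 0.624), and PIP2-2 gave -0.19 and 0.09 (interaction 0.28, adjusted p = 0.757). The second TIP2-1 probe set gave 0.58 with P and -0.34 without it (interaction -0.92, adjusted p = 0.498). Its arrays overlapped between the combined and the P deficiency, so it would not have been flagged.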

How the results depend on the processing

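In the order main setting, 64 added, intensity trend and 1 added, the probe sets called numbered 4736, 7473, 9121 and 3082 in P deficiency. They numbered 2200, 4506, 6642 and 843 in the combined deficiency. For the combined against Fe deficiency they numbered 1293, 3614, 5741 and 205, and for the averaged P effect 7211, 9944, 11241 and 5308. With 2 groups only, 0 were called in P deficiency. Among probe sets above the median only, they numbered 8847 in P deficiency and 11379 for the averaged P effect. The count of members called moved too, in the comparisons that called any. In P deficiency (2 called) it was 7 with 64 added in place of 16, 10 among probe sets above the median only, 9 with an intensity trend, 0 with the arrays of the 2 groups only, and 0 to 2 with 1 array left out. In the combined deficiency (2) it was 1 with arrays centred on their medians (PIP2-8) and 1 with 1 added (TIP2-1). It was 5 above the median, 5 with the trend, 0 with 2 groups only and 0 with any array left out. The 5 with the trend were NIP2-2, PIP1-3, PIP2-6, TIP2-1 and TIP4-1, without PIP2-8. For the combined against Fe deficiency (1) it was 2 with the deposited scaling only, 0 centred, 0 with 1 added, 4 with 64 added, 6 above the median, 0 without _x_at and _s_at probe sets, 5 with the trend, 0 with 2 groups only and 0 with any array left out. For the averaged P effect (6) it was 3 with 1 added, 11 with 64 added, 12 above the median, 12 with the trend and 2 to 4 with 1 array left out. The counts of 0 in Fe deficiency, in the combined against P deficiency, in the interaction and in the averaged Fe effect stayed at 0 under every alternative run. The cause of these moves was not tested, except that the settings with 1 array fewer, or 2 groups only, rest on fewer arrays. TIP2-1 and PIP2-8 passed the averaged P effect under all 17 alternatives, at 0.85 to 1.82 and 0.84 to 1.39.

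Over all probe sets, deviations of same-numbered arrays from their group means correlated at -0.0173 to 0.0172, so no pairing by replicate number was seen. Bright genes were not checked alone, so a pairing in them is not excluded. With a replicate block the count was 2 in P deficiency, 0 in the combined deficiency, 0 for combined against Fe deficiency and 3 for the averaged P effect.

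Subfamily medians shifted with scaling and with single arrays. Centring moved the median of all probe sets from -0.02 to -0.15 in P deficiency and to -0.19 in the combined deficiency, and from -0.01 to 0.0 in Fe deficiency. With 1 array left out the NIP median was 0.25 to 0.83, -0.63 to -0.21 and 0.03 to 0.70 in P, Fe and combined deficiency, and the TIP median in P deficiency was -0.08 to 0.08. In P deficiency, centring gave -0.18 for PIP, -0.17 for TIP and 0.15 for SIP genes, the deposited scaling gave 0.04 for PIP, and leaving out 1 array gave -0.05 to 0.02 for PIP. In Fe deficiency PIP gave -0.16 with the deposited scaling, -0.15 centred, 0.10 above the median and 0.02 to 0.10 with 1 array left out. TIP gave -0.01 above the median, 0.15 without _x_at and _s_at probe sets and 0.07 to 0.14 with 1 array left out, and NIP gave -0.78 without those probe sets. In the combined deficiency PIP gave -0.32 centred, 0.09 above the median and 0.10 without those probe sets, TIP -0.12 and SIP 0.02 centred. No called change of a member reversed. Among changes not called in either setting, the sign could differ from that of the main setting. With 1 member under 1 alternative as a result, it differed in 16 of 424 results in P deficiency and 25 of 424 in Fe deficiency. In the combined deficiency it was 13 of 424, and for the averaged P and Fe effects 16 of 400 and 39 of 400.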
